A study of Arabidopsis thaliana with 28 samples.

Results

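The 8 genes described here set the fate of root epidermal cells in Arabidopsis or drive the growth of root hairs: WER (AT5G14750), CPC (AT2G46410), GL2 (AT1G79840), RHD6 (AT1G66470), RSL1 (AT5G37800), RSL2 (AT4G33880), RSL4 (AT1G27740) and COBL9 (AT5G49270). They were chosen by name, as 8 of the 27444 protein-coding genes of the nuclear chromosomes. ATAC-seq, which reads where a transposase can cut and tag the DNA, was run on nuclei stained with DAPI and sorted. Tissue had been kept for 45 min in liquid MS medium holding either the cytokinin benzyladenine (BA) at 5 µM or vehicle (control). Roots of arr1,10,12, a line mutant for 3 type-B response regulators (ARR1, ARR10, ARR12), which carry the cytokinin signal to DNA, gave 2 BA and 2 control libraries. Wild-type (WT, Col-0) roots gave 4 BA and 4 control libraries, and WT shoots 2 BA and 2 control libraries. The labels give no plant age, and whole organs were used, so each library mixes nuclei of many cell types. The series text calls the libraries biological replicates.

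In the root epidermis, cells over the cleft between cortical cells become hair cells and the others become hairless. In hairless cells the MYB factor WER, with bHLH partners, switches on GL2, a homeodomain factor that represses the hair programme, and CPC, a small MYB protein that moves to neighbouring cells and blocks WER's partners there. In hair cells, where GL2 is off, the bHLH factors RHD6 and RSL1 start the hair programme and turn on RSL2 and RSL4, which drive hair outgrowth; COBL9, a COBRA-like wall protein, acts in the growing hair. GL2, CPC and their partners also act in leaf hairs of the shoot.

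The measure was the covered percent, the share of a window, made of the gene body and the 1 kb flanking each end, that lay under a peak in a library. Lists held 31655 to 34105 peaks in arr1,10,12 roots, 32144 to 36358 in WT roots and 30778 to 34538 in WT shoots. Averaged over all protein-coding genes, the covered percent was 27.3 ± 1.82 in arr1,10,12 roots (SD, n = 4), 27.9 ± 1.75 in WT roots (n = 8) and 23.2 ± 1.91 in WT shoots (n = 4). Peaks thus covered more of the genome in roots than in shoots, and differences between the organs are given below also after each library's mean was subtracted. With the mean taken over the genes tested, this lowers every gene's root minus shoot difference by the same 5.27 percentage points. The lists hold positions without read numbers, so the depth behind a value is unknown and counting error has no interval here. Of the green leaf markers, 5 of 6 had a lower covered percent in roots and none a higher one by the test described next. Among all genes tested, 10.0% were lower and 36.7% higher in roots. LHCB2.1, a light-harvesting protein gene, averaged 6.78 ± 3.07 in WT roots and 78.5 ± 10.5 in WT shoots (SD, n = 8 and 4). The marker not called, LHCA1, had a higher mean in WT roots than in WT shoots, with overlapping libraries.

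For roots against shoots, the 8 WT root libraries were set against the 4 WT shoot libraries, BA and control together, by a two-sided exact permutation test for each gene with a peak in at least 2 of the 12, adjusted by Benjamini-Hochberg over all 24629 such genes. A gene was called at an adjusted p under 0.05. Of the 8 genes, 4 were called, RHD6, RSL4, GL2 and CPC, and all 4 had the higher covered percent in roots. Among all genes tested, 46.8% were called, 36.7% as higher and 10.0% as lower in roots, so that a share of 4 in 8 is near the background. WER, RSL2 and COBL9 were tested and not called, and RSL1 could not be tested because no library had a peak in its window. RHD6, RSL2 and RSL4 entered the test only through their peaks in roots. Root and shoot libraries did not overlap for the same 4 genes, as for 33.6% of all genes tested. The size of the difference set some of the 8 apart from most genes: the root minus shoot difference of RSL4 was above that of 99.1% of genes tested, CPC's above 97.8%, RHD6's above 97.7% and GL2's above 86.8%. RSL2 stood at 63.1%, WER at 60.9% and COBL9 at 53.3%. Because whole organs were compared, more cells of a type and more open chromatin per cell cannot be told apart in any of these values.

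**Figure D1:**
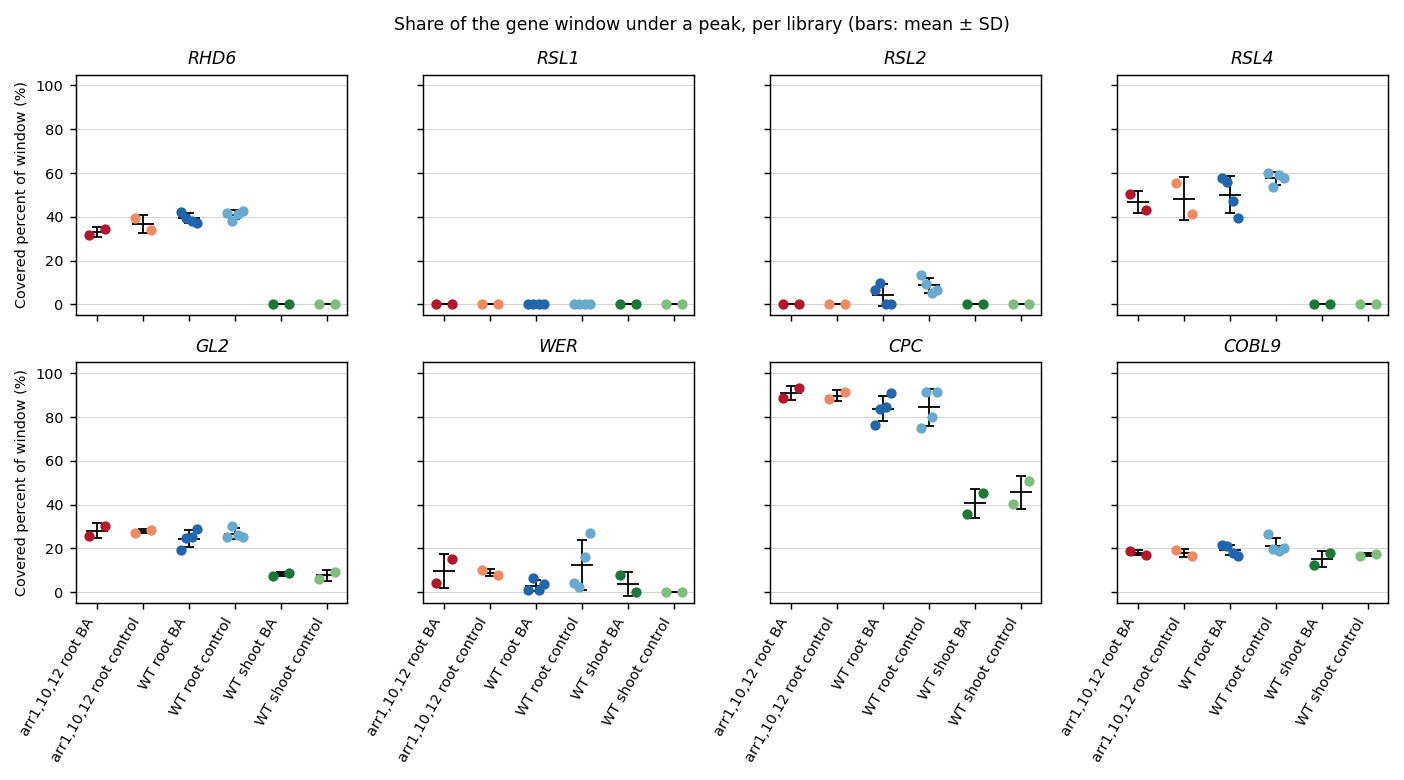
Covered percent (%) of the window of each gene in every library. Points are libraries, horizontal ticks the group means and bars 1 SD; RHD6 and RSL4 are at 0 in all 4 shoot libraries, CPC and GL2 are above 0 in shoots with no overlap with roots, and RSL1 is at 0 throughout.

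Of the patterning genes, WER, which starts the hairless programme, had a covered percent that varied widely between root libraries and was 0 in 3 of 4 shoot libraries. Its covered percent in arr1,10,12 roots was 4.07 and 15.2 with BA and 9.99 and 7.97 in controls. WT roots had 1.18, 6.27, 1.16 and 3.55 with BA and 4.19, 2.51, 15.9 and 27.2 in controls. WT shoots had 7.74 and 0 with BA and 0 in both controls. All 12 root libraries had some peak in the window, and their levels overlapped the 1 shoot library that had one. The difference between WT roots (7.74 ± 9.19, SD, n = 8) and WT shoots (1.93 ± 3.87, n = 4) was 5.80 percentage points (exact permutation p = 0.255, adjusted p = 0.347); with the BA libraries alone it was -0.830, and with each library's mean subtracted it was 0.534. In the order of the 6 group means, WT root controls came first (12.4) and WT shoot controls last (0); the arr1,10,12 controls (8.98) did not overlap the WT shoot BA libraries next to them, nor did the WT root BA libraries overlap the shoot controls, while other neighbours overlapped.

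The WER gene body lay under a peak in 1 library alone, WT root control 4, where 0.205% was covered. Peaks from the same libraries were joined where they overlapped, and for each joined region the number of libraries with a peak was tested (Fisher's exact test, two-sided, adjusted over all regions). A region on chr5:4765551-4766028, which starts 716 bp beyond the higher-coordinate end of the gene and runs out of the window, held a peak in 8 of 8 WT root and 0 of 4 WT shoot libraries (adjusted p = 0.0247). It held one in 2 of 4 arr1,10,12 libraries, 1 with BA and 1 control, against 8 of 8 in WT roots (Fisher's exact p = 0.0909, adjusted p = 1.00). A second region on chr5:4762721-4763132, ending 239 bp below the lower-coordinate end, had a peak in 3 of 4 arr1,10,12 libraries, 2 of 8 WT root libraries (both controls) and 1 of 4 shoot libraries. Another, on chr5:4764832-4765195 at the higher-coordinate end of the gene, had a peak in 1 of 4 arr1,10,12 libraries (BA 2), 1 of 8 WT root libraries (control 4) and 0 of 4 shoot libraries. The carbonic anhydrase gene CA2 reaches into the lower flank, with its annotated end 705 bp from WER. The shoot library with a WER peak had a further peak of 200 bp over CA2. That peak lay 1132 to 932 bp below WER, so part of it was inside the window. The gene table carries no strand, so promoter and terminator ends cannot be named here.

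GL2, the homeodomain repressor of hair fate, had more of its window open in every root library than in any shoot library. Its covered percent was 25.6 and 30.4 with BA and 27.2 and 28.5 in controls in arr1,10,12 roots. For WT roots the values were 19.4, 24.7, 25.0 and 28.8 with BA and 25.1, 30.3, 26.2 and 25.3 in controls. For WT shoots they were 7.59 and 8.94 with BA and 5.81 and 9.44 in controls. The root and shoot libraries did not overlap, and among the 4 root groups, whose means ran from 28.0 down to 24.5, all neighbours in order overlapped. WT roots averaged 25.6 ± 3.23 (SD, n = 8) and WT shoots 7.95 ± 1.62 (n = 4), a difference of 17.7 percentage points (exact permutation p = 0.00202, adjusted p = 0.00701), and of 12.4 with the library means subtracted.

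The GL2 difference lay on the lower-coordinate side of the gene. The 1 kb below the gene was covered to 91.5% ± 7.85 in WT roots and 13.5% ± 15.6 in WT shoots (SD, n = 8 and 4), where 2 shoot libraries had no peak at all; the gene body was covered to 6.61% ± 4.47 in WT roots and 0% in all WT shoots. The 1 kb above the gene was covered to 44.9% ± 12.7 in WT roots and 38.0% ± 7.95 in WT shoots, and the ranges overlapped. A region inside the gene body on chr1:30037009-30037639 had a peak in 6 of 8 WT root and 0 of 4 WT shoot libraries (Fisher's exact p = 0.0606, adjusted p = 0.393).

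CPC, the mobile MYB inhibitor, was the most widely covered of the 8 genes in both organs. The arr1,10,12 roots were covered to 88.9% and 93.2% with BA and 88.2% and 91.5% in controls. In WT roots the covered percent was 76.4, 83.9, 84.4 and 90.8 with BA and 74.9, 91.4, 80.1 and 91.5 in controls. In WT shoots it reached 35.8 and 45.3 with BA and 40.2 and 50.9 in controls. No shoot library reached the lowest root library, and a gap of 24.0 percentage points lay between WT roots and WT shoots. WT roots averaged 84.2 ± 6.68 (SD, n = 8) and WT shoots 43.0 ± 6.52 (n = 4), a difference of 41.1 (exact permutation p = 0.00202, adjusted p = 0.00701), and of 35.9 with the library means subtracted. The 4 root groups had means between 91.1 and 83.9 and overlapped as neighbours in order, as did the 2 shoot groups.

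CPC was open in both organs but over different lengths. The 1 kb below the gene was covered to 99.8% ± 0.672 in WT roots and 88.4% ± 10.5 in WT shoots (SD, n = 8 and 4). The gene body was covered to 60.9% ± 16.4 in WT roots and 2.35% ± 1.58 in WT shoots, and the 1 kb above it to 100% in all 8 WT root libraries and to 52.5% ± 19.0 in WT shoots. For scale, the median over all 24629 genes in WT roots was 34.1% below the gene, 14.1% in the body and 34.1% above it. The 2 wide regions over the CPC flanks had a peak in 16 of 16 libraries, so a count of libraries with a peak did not separate the organs here, while the covered length did. On the higher-coordinate side, the region chr2:19050079-19053504 extended 3135 bp beyond the gene.

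**Figure D2:**
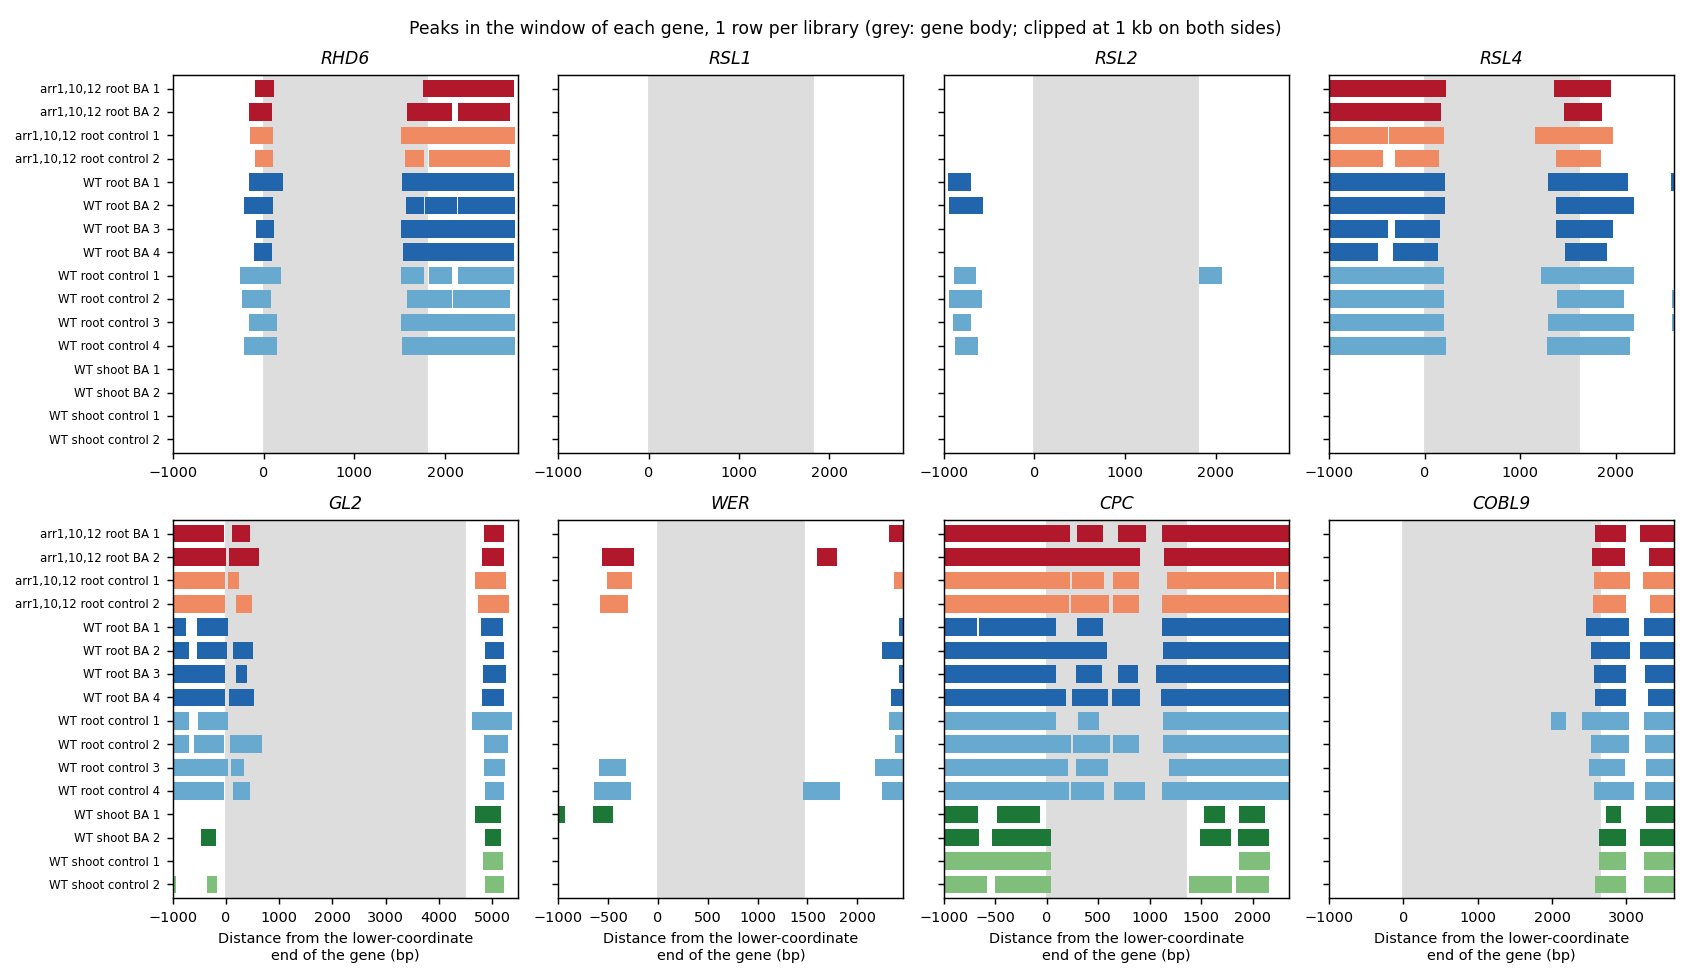
Peaks in the window of each gene, 1 row per library, against the distance (bp) from the lower-coordinate end of the gene; grey marks the gene body and bars are cut off 1 kb beyond it. RHD6 and RSL4 have peaks at both ends of the gene in all 12 root libraries and none in the 4 shoot libraries, RSL2 has a narrow peak in 6 WT root libraries, and COBL9 has peaks on its higher-coordinate side in all 16.

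Of the bHLH genes that start hair growth, RHD6 had peaks in every root library and in no shoot library. Its covered percent was 31.6 and 34.6 with BA and 39.6 and 33.9 in controls in arr1,10,12 roots. In WT roots it was 42.3, 39.6, 38.2 and 37.3 with BA and 41.9, 38.2, 41.1 and 42.6 in controls, and it was 0 in all 4 WT shoot libraries. Every root library was thus far above the shoots. WT roots averaged 40.2 ± 2.09 (SD, n = 8). The difference of 40.2 percentage points from WT shoots had an exact permutation p of 0.00202 and an adjusted p of 0.00701, and was 34.9 with the library means subtracted. The group means ran from WT root controls (41.0) through WT root BA (39.4) and arr1,10,12 controls (36.7) to arr1,10,12 BA (33.1), each overlapping the next.

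The RHD6 peaks sat at the ends of the gene. A region on chr1:24794951-24795427 spanned the lower-coordinate end, from 263 bp below it to 214 bp inside the gene. A wider one on chr1:24796727-24797983 spanned the higher-coordinate end and reached 968 bp beyond it, so that the 1 kb above the gene was covered to 94.4% ± 3.26 in WT roots (SD, n = 8). Both had a peak in 4 of 4 arr1,10,12, 8 of 8 WT root and 0 of 4 WT shoot libraries (adjusted p = 0.0247 for WT roots against WT shoots). No other annotated gene lies in the window of RHD6.

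RSL1, the close relative that acts with RHD6, had no peak in its window in any of the 16 libraries, as was the case for 8.72% of all protein-coding genes. The nearest peak was 1227 to 2488 bp from the gene in the different libraries. The closest ones, 1227 and 1229 bp beyond the higher-coordinate end, were found in WT root controls 1 and 4. At the resolution of a peak list this says that no peak was called there, not that the chromatin was closed.

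RSL4, which sets how long a hair grows, showed the largest root minus shoot difference of the 8 genes. Covered percent in arr1,10,12 roots was 50.2 and 43.3 with BA and 55.4 and 41.3 in controls. In WT roots it came to 57.6, 56.0, 47.1 and 39.4 with BA and 60.2, 53.5, 58.9 and 57.8 in controls, and in WT shoots it was 0 in all 4 libraries. The lowest root library, at 39.4, was thus far from the shoots, and the 4 root groups overlapped from WT root controls (57.6) through WT root BA (50.0) and arr1,10,12 controls (48.3) to arr1,10,12 BA (46.7). WT roots averaged 53.8 ± 7.13 (SD, n = 8), and the difference of 53.8 percentage points had an exact permutation p of 0.00202 and an adjusted p of 0.00701; it was 48.5 with the library means subtracted. A peak in all 8 WT root libraries and in no shoot library, the pattern of RHD6 and RSL4, was found in the windows of 2.70% of all genes tested.

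Like RHD6, RSL4 had a peak at both ends. The region on its lower-coordinate side, chr1:9652639-9654694, reached from 1836 bp below the gene to 220 bp inside it and covered the flank to 97.2% ± 5.86 in WT roots (SD, n = 8). The other, chr1:9655689-9656667, covered the higher-coordinate end. Both had a peak in 4 of 4 arr1,10,12, 8 of 8 WT root and 0 of 4 WT shoot libraries (adjusted p = 0.0247 for WT roots against WT shoots). A further region on chr1:9657058-9657753, beginning 968 bp beyond the gene at the edge of the window, was present in 16 of 16 libraries. That region was covered to a mean of 74.9% in WT roots and 67.8% in WT shoots. In the 1 kb above the gene, arr1,10,12 roots were covered to 29.0% ± 6.22 and WT roots to 50.0% ± 11.2 (SD, n = 4 and 8), with overlapping ranges, whereas the lower-coordinate flank was covered to 96.6% ± 6.23 in arr1,10,12 roots.

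RSL2, the other late bHLH gene of the pathway, had a narrow peak only in some WT roots. Its covered percent was 0 in all 4 arr1,10,12 libraries and in all 4 WT shoot libraries. In WT roots it was 6.67, 9.88, 0 and 0 with BA and 13.2, 9.40, 5.25 and 6.62 in controls. All 4 controls and 2 of 4 BA libraries thus had a peak, and 2 BA libraries were as low as the shoots. WT roots averaged 6.37 ± 4.63 (SD, n = 8), and the difference from WT shoots was 6.37 percentage points (exact permutation p = 0.0485, adjusted p = 0.0902), or 1.10 with the library means subtracted (adjusted p = 0.630). RSL2 was called with windows of 2 kb on both sides (adjusted p = 0.0486) and with limma, a linear model fitted across all genes (adjusted p = 0.0306). The peaks joined into 1 region on chr4:16238407-16238800, lying 562 to 956 bp below the lower-coordinate end; WT root control 1 alone had another, 7 bp beyond the other end.

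COBL9, the wall protein gene of the growing hair, had peaks in every library of both organs and was not called. Roots of arr1,10,12 had a covered percent of 18.8 and 17.2 with BA and 19.3 and 16.6 in controls. Roots of the WT had 21.4, 21.3, 17.8 and 16.5 with BA and 26.5, 19.5, 18.8 and 20.2 in controls. Shoots of the WT had 12.5 and 17.9 with BA and 16.6 and 17.6 in controls. The groups overlapped, as did each pair of neighbours in the order of the 6 group means, from WT root controls (21.3) to shoot BA (15.2). WT roots averaged 20.3 ± 3.04 and WT shoots 16.2 ± 2.52 (SD, n = 8 and 4), a difference of 4.09 percentage points (exact permutation p = 0.0364, adjusted p = 0.0714). The direction did not hold with the library means subtracted, where the difference was -1.18 (adjusted p = 0.588). COBL9 was called with 0.5 kb on both sides (adjusted p = 0.0279) and without WT root BA 4 (adjusted p = 0.0302).

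COBL9 stood apart from RHD6 and RSL4 in where its peaks lay. The 1 kb below the gene had no peak in any of the 16 libraries. The 1 kb above it was covered to 74.5% ± 7.55 in arr1,10,12 roots, 78.5% ± 5.79 in WT roots and 72.7% ± 10.2 in WT shoots (SD, n = 4, 8 and 4), by a region over the higher-coordinate end and by another that began 531 bp beyond the gene and was 5667 bp wide. Both were present in 16 of 16 libraries. The gene body was covered to 5.93% ± 4.62 in WT roots and 0.935% ± 1.08 in WT shoots, with overlapping ranges.

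**Figure D3:**
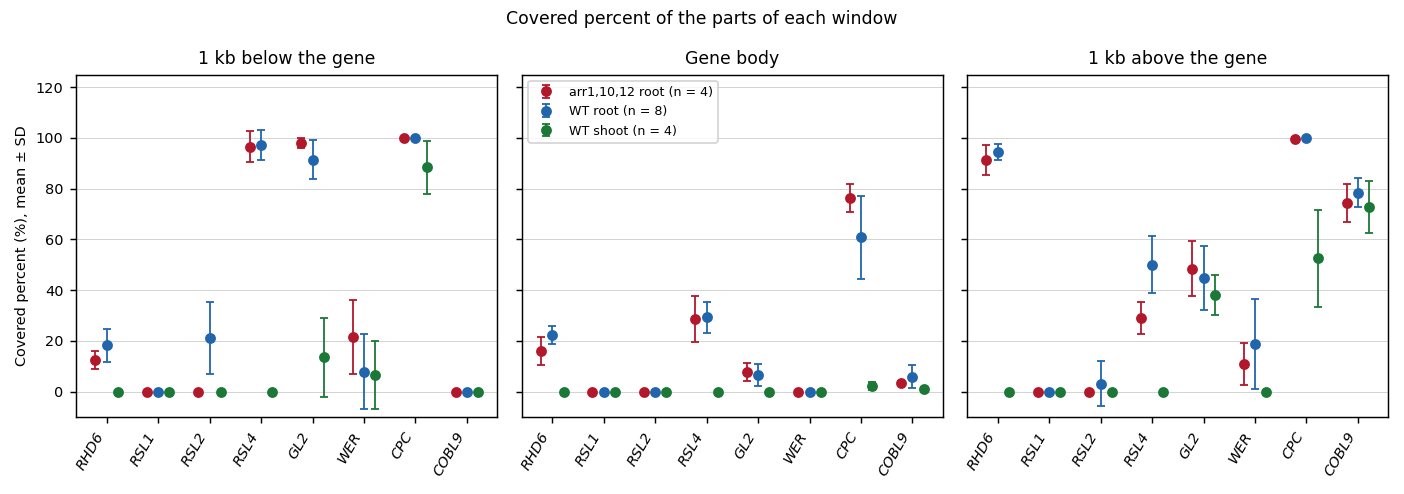
Covered percent (%) of the 1 kb below each gene, the gene body and the 1 kb above it; points are means and bars 1 SD over the libraries of arr1,10,12 roots, WT roots and WT shoots. Below GL2 and RSL4, in the body of CPC and above RHD6 the roots of both genotypes stand far above the shoots, while the bars of the 3 sets overlap on both flanks of COBL9.

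In all, the 8 windows held 16 joined regions present in at least 2 WT libraries, of which 5 were called between roots and shoots, the 2 of RHD6, the 2 of RSL4 and the 1 beyond WER, each in 8 of 8 root and 0 of 4 shoot libraries. Of all 32001 regions tested, 8.17% were called and 5.36% had that pattern. These 5 regions passed the minimum of 2 libraries only through roots. With 3 in place of 4 shoot libraries the test called none of the 16, whichever shoot library was left out. The smallest p of Fisher's exact test is larger for 8 against 3 libraries than for 8 against 4. The share of all regions called with 3 shoot libraries is not reported here, so the loss cannot be assigned to these 5 regions.

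The genes that act with the 8 are given by list, and the lists were not tested against each other. Of 6 other regulators of root hair growth, 4 were higher in roots and 0 lower, against 36.7% and 10.0% of all genes tested. The median difference over all 6 was 33.2 percentage points, against 3.49 over all genes tested. ZFP5, a zinc finger gene of the hair programme, averaged 90.9 ± 9.24 in WT roots and 3.24 ± 6.49 in WT shoots (SD, n = 8 and 4). LRL1, a bHLH gene of hair growth, averaged 57.0 ± 8.07 in WT roots and 14.6 ± 0.818 in WT shoots. The other 2 called were LRL2 (45.7 ± 7.38 in WT roots and 21.9 ± 1.29 in WT shoots) and the locus AT2G14760 (47.7 ± 8.34 in WT roots and 0 in all shoots). Each of these 4 had an adjusted p of 0.00701 in the exact permutation test and was called with the library means subtracted; AT2G14760 entered the test only through its root peaks.

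Of 16 genes that build the growing hair, 8 were higher in roots and none was lower at the adjusted threshold, against 36.7% and 10.0% of all genes tested. The median difference was 11.0 percentage points. Among them were the expansin genes EXPA7 and EXPA18, which loosen walls, the NADPH oxidase gene RHD2, the cellulose-synthase-like gene CSLD3, SCN1, which confines the site of growth, and the phosphoinositide genes RHD4 and PIP5K3. EXPA18 averaged 42.2 ± 10.7 in WT roots and 1.70 ± 3.39 in WT shoots (SD, n = 8 and 4), and RHD2 52.7 ± 10.5 in WT roots and 22.8 ± 0.475 in WT shoots. With the library means subtracted, 6 were higher and 1 lower, the wall protein gene LRX2, and RHD4 was not called.

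Of 13 other patterning genes, 4 were higher and 2 lower in roots, counts near the 36.7% and 10.0% of all genes tested, and the median difference was 0.564 percentage points. ETC1, a CPC relative, averaged 37.2 ± 5.91 in WT roots and 6.80 ± 4.82 in WT shoots, and MYB23, a WER relative, 20.0 ± 3.91 in WT roots and 0 in all WT shoots (SD, n = 8 and 4). The other 2 higher in roots were TTG2, a WRKY gene (27.9 ± 5.32 in WT roots and 11.9 ± 1.38 in WT shoots), and JKD, a zinc finger gene (20.6 ± 2.96 in WT roots and 13.3 ± 2.74 in WT shoots). TTG1, the WD40 partner of the MYB and bHLH proteins, was lower, with 15.6 ± 3.03 in WT roots and 34.0 ± 11.7 in WT shoots, as was TRY, a CPC relative of leaf hairs, with 8.31 ± 4.26 in WT roots and 15.8 ± 3.04 in WT shoots. MYB23 entered the test only through its root peaks. With the library means subtracted, 3 of the 13 (ETC1, MYB23 and TTG2) were higher and 5 lower, and JKD, whose groups overlapped, was not called. Among the 5 lower was SUB, which before subtraction averaged 1.40 ± 0.726 in WT roots and 0.838 ± 0.207 in WT shoots, so its own mean was not lower in roots. Because the step lowers every gene's difference by the same amount, a gene little covered in both organs can be called lower through it alone. The share of all genes called after subtraction is not reported here, for this or the other lists. GL1, the WER relative of leaf hairs, had a mean of 0 in WT roots and 1.31 ± 2.62 in WT shoots and did not enter the test.

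**Figure D4:**
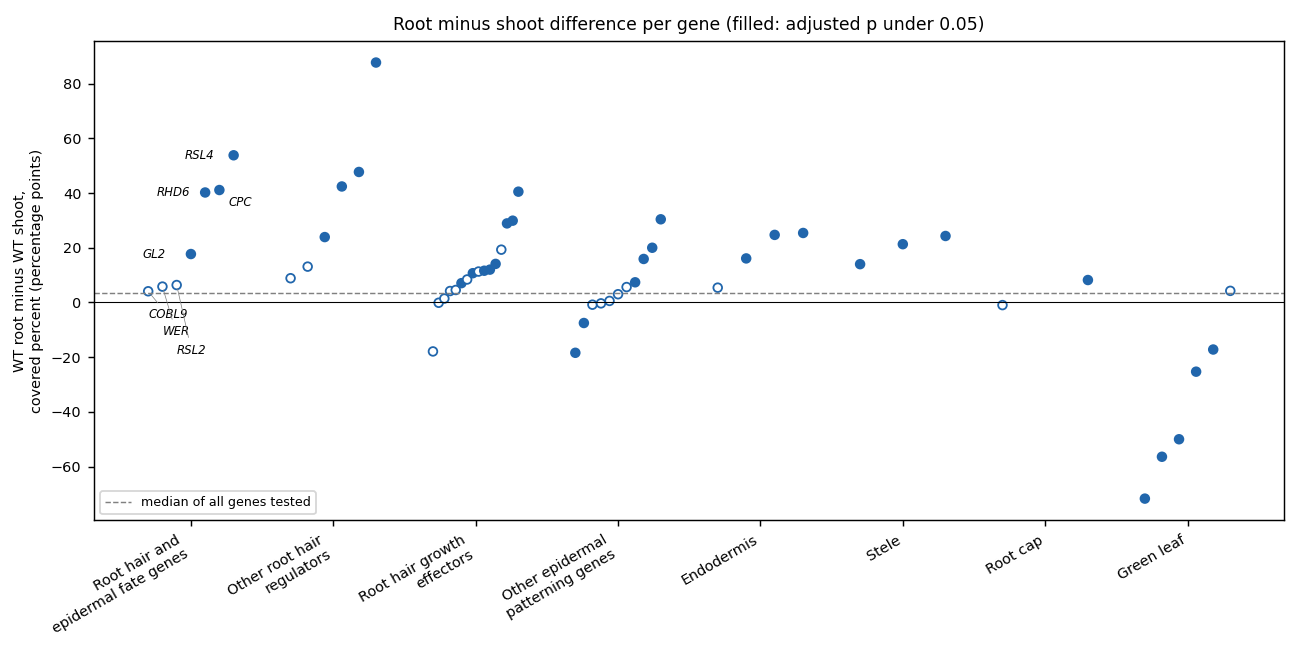
WT root minus WT shoot difference in covered percent (percentage points) of each gene tested, by gene list; filled points have an adjusted p under 0.05 and the dashed line is the median of all genes tested, 3.49. RSL4, CPC, RHD6 and GL2 lie with the regulators of hair growth well above it, and the green leaf genes lie mostly below 0.

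Markers of other root tissues were counted in the same way, in short lists. Of the endodermis markers 3 of 4 were higher in roots, of the stele markers 3 of 3 and of the root cap markers 1 of 3, where BRN2 had too few peaks to be tested. Among all genes tested 36.7% were higher and 10.0% lower, so the root cap count is near the background. With the library means subtracted, 3 endodermis markers and 1 stele marker (PHO1) were higher, and of the root cap markers none was. BRN1, not called before the subtraction, was lower after it. The mean covered percent of the endodermis list ran from 25.9 to 38.8 over WT root libraries and from 11.6 to 14.6 over WT shoot libraries, that of the stele list from 31.8 to 51.6 over WT root libraries and from 16.3 to 21.3 over WT shoot libraries. The root cap list ran from 3.67 to 9.20 in WT roots and from 3.83 to 5.82 in WT shoots. For the 8 genes the same mean ran from 26.7 to 33.9 over WT root libraries and from 7.83 to 9.75 over WT shoot libraries. The part of organ composition in the differences of the 8 genes was not tested. Of all genes called, 78.5% were higher in roots, and 38.6% were so with the library means subtracted; RHD6, RSL4, GL2 and CPC were called higher in roots both ways.

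BA and control libraries of the same replicate number were taken as pairs. The labels give the numbers but no pairing, which was inferred from deviations from the group means. With the 2 libraries of a number averaged, 4 root numbers stood against 2 shoot numbers, and the smallest p such an exact permutation can give is 0.0667, so 0 of the 8 genes and 0 of all genes were called. limma on the same averages called 8705 genes, among them RHD6, RSL4, GL2 and CPC. Within the BA libraries alone the root minus shoot differences of these 4 were 39.4, 50.0, 16.2 and 43.3 percentage points, and within the controls alone 41.0, 57.6, 19.1 and 38.9, in the order RHD6, RSL4, GL2 and CPC.

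The mutant was compared with the wild type to ask whether the open state of these genes in roots differs without the type-B regulators. None of the 8 genes was called between the 4 arr1,10,12 and the 8 WT root libraries, as for all 24267 genes tested (0% called by the exact permutation test with Benjamini-Hochberg adjustment; limma called 66 genes and none of the 8). At an unadjusted p under 0.05 there were 2465 genes (10.2%; 7.11% lower in the mutant) and 2 of the 8, RHD6 and RSL2, both lower. The groups did not overlap for 1.59% of all genes and for none of the 8. RHD6 averaged 34.9 ± 3.34 in arr1,10,12 roots and 40.2 ± 2.09 in WT roots (SD, n = 4 and 8), a difference of -5.25 percentage points (exact permutation p = 0.0101, adjusted p = 0.343), and 3 of 4 mutant libraries lay below every WT root library.

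RSL2, at 0 in every mutant library, differed by -6.37 percentage points from WT roots (exact permutation p = 0.0485, adjusted p = 0.477), and it entered this test only through WT roots. Its region on chr4:16238407-16238800 had a peak in 0 of 4 arr1,10,12 and 6 of 8 WT root libraries (Fisher's exact p = 0.0606, adjusted p = 1.00). The same pattern, or a peak in still more WT root libraries with none in arr1,10,12, was defined after RSL2's values were seen and was found in the windows of 0.326% of all genes tested. The RSL2 peak was missing in WT root BA 3 and BA 4, whose mean covered percent over all genes was 25.8 and 26.6. With the peak, WT root BA 1 had 28.5 and BA 2 27.1, and controls 1 to 4 had 31.2, 29.4, 27.7 and 27.0. The mutant libraries, all without it, ran from 25.1 to 29.5. The part of these library means in the missing peaks was not tested.

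The others differed from WT roots by -6.28 percentage points for RSL4, -2.29 for COBL9, 1.57 for WER, 2.29 for GL2 and 6.27 for CPC, each with overlapping groups and an adjusted p of at least 0.589 (exact permutation test). For WER the direction turned, to -0.395 without arr1,10,12 BA 2 and to -3.46 with controls alone, and for CPC the difference was 15.6 in the gene body alone (adjusted p = 0.759). Of 15 joined regions in the windows none was called (of all 30896 regions, 0% at the adjusted and 0.816% at the unadjusted threshold, by Fisher's exact test). Of the related lists, 0 of 13 patterning genes, 0 of 6 hair regulators and 0 of 16 hair growth genes were called.

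BA against control in WT roots, 4 libraries each, asks whether 45 min of cytokinin changed these genes. No gene was called (0% of 24147; limma also called none, and had 1322 genes at an unadjusted p under 0.05). The smallest exact p of 4 against 4 libraries is 0.0286, reached by 761 genes, and 13799 would have been needed for a call. At that unadjusted level there were 3.15% of all genes and 0 of the 8. All 7 genes with a peak had a lower mean with BA, as had 79.2% of all genes tested, whose median difference was -1.70 percentage points. With the library means subtracted, 4 of the 7 were lower and RHD6, CPC and COBL9 were not.

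**Figure D5:**
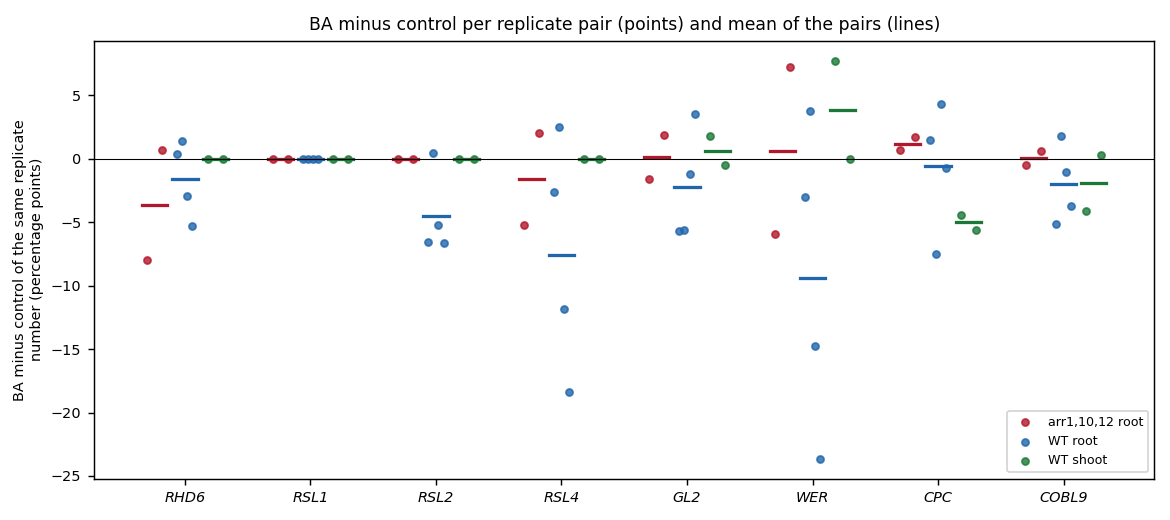
BA minus control covered percent (percentage points) for each pair of libraries with the same replicate number (points) and their mean (lines), for 2 pairs of arr1,10,12 roots, 4 of WT roots and 2 of WT shoots. In WT roots WER and RSL4 fall furthest below 0, in pairs 3 and 4, while the pairs of CPC and RHD6 lie on both sides of 0.

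WER had the largest of these differences, with 3.04 ± 2.43 in BA and 12.4 ± 11.5 in control WT roots (SD, n = 4 each), or -9.40 percentage points (exact permutation p = 0.200, adjusted p = 0.866). By pair it was -3.00, 3.75, -14.7 and -23.7. RSL4 had 50.0 ± 8.47 with BA and 57.6 ± 2.91 in controls, or -7.57 (exact permutation p = 0.143, adjusted p = 0.860), and by pair -2.57, 2.49, -11.8 and -18.4. In both genes pairs 3 and 4 made up the difference. RSL2 followed with 4.14 ± 4.95 with BA and 8.61 ± 3.49 in controls (-4.47, exact permutation p = 0.257, adjusted p = 0.870), and its peak was missing in the BA libraries of those 2 pairs.

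The mean covered percent of all genes in pair 3 was 25.8 with BA and 27.7 in control, and in pair 4 it was 26.6 with BA and 27.0 in control. In pair 1 it was 28.5 with BA and 31.2 in control, and in pair 2 27.1 with BA and 29.4 in control. The part of these library means in the differences of WER and RSL4 was not tested. GL2 (-2.24), COBL9 (-2.02), RHD6 (-1.60) and CPC (-0.582) differed by less, each with overlapping groups and an adjusted p of at least 0.882 (exact permutation test). Labels permuted within the 4 pairs cannot give a p below 0.125.

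In arr1,10,12 roots and WT shoots, with 2 BA and 2 control libraries each, an exact permutation test cannot give a p below 0.333, and no test was run. In arr1,10,12 roots the BA minus control difference was largest for RHD6, at -3.62 percentage points, and ranged from -1.56 for RSL4 to 1.22 for CPC among the others with a peak. In WT shoots it was 3.87 for WER, through 1 BA library, 0.640 for GL2, -1.93 for COBL9 and -4.99 for CPC. BA and control overlapped for all 6 genes with a peak in arr1,10,12 roots and all 4 with a peak in WT shoots; they did not for 26.8% and 21.9% of all genes with a peak in at least 2 libraries of each set. The BA effect was not shown to differ between organs or genotypes for any of the 8: with the BA and control labels permuted inside each set no gene was called (0% adjusted, 4.51% unadjusted in 24629 for roots minus shoots, and 0% and 1.90% in 24267 for arr1,10,12 minus WT roots). The smallest p among the 8 was that of WER for WT roots minus WT shoots (-13.3 percentage points, exact permutation p = 0.100, adjusted p = 0.981).

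None of the 8 windows held a region of the authors' deposited tables of differential regions between BA and control. Of all genes with a peak, 2.44% held one of the 760 root regions and 2.82% one of the 685 shoot regions. The nearest root region lay 23953 bp from RHD6 and the nearest shoot region 5913 bp from RSL4. The 5 type-A regulator genes listed here were chosen as genes that BA is known to induce, with earlier results of these data known. Other type-A genes were not listed. All 5 had a higher mean with BA in WT roots. BA and control libraries did not overlap for 1 of the 5, ARR7, as for 3.15% of all genes tested, and overlapped for the others. ARR7 averaged 81.1 ± 10.6 with BA and 35.9 ± 2.98 in controls (SD, n = 4 each).

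Of the related genes, ZFP5 was the only hair regulator or patterning gene with a region of the authors' deposited root table, and it is named here after its values were seen. Its covered percent in WT roots was 99.5, 100, 94.3 and 97.8 with BA and 80.6, 90.0, 90.7 and 74.3 in controls. The groups did not overlap, and the difference of 14.0 percentage points had the smallest p the design allows (exact permutation p = 0.0286, adjusted p = 0.860). In arr1,10,12 roots it was 96.9 and 94.0 with BA and 92.0 and 91.8 in controls. The BA effect was not shown to differ between the genotypes (arr1,10,12 minus WT effect, -10.5 percentage points, exact permutation p = 0.171, adjusted p = 1.00). The regions of that table were chosen by the authors on the WT root libraries of this series. Values inside them therefore describe the regions and are no separate evidence of a BA effect. Of its 3 regions in the authors' deposited root table, chr1:3449443-3449900 was covered to a mean of 100% with BA and 99.6% in controls in WT roots. The region chr1:3450763-3451060 was covered to 100% with BA and 85.6% ± 1.75 in controls in WT roots (SD, n = 4 each), and to 89.6% ± 9.02 with BA and 100% in controls in arr1,10,12 roots (n = 2 each). The region chr1:3451183-3451840 was covered to 100% with BA and 87.6% ± 8.60 in controls in WT roots, and to 100% with BA and 87.7% ± 7.95 in controls in arr1,10,12 roots. The type-A gene ARR4 lies on the lower-coordinate side of ZFP5, and its window held regions of the same deposited table, among them chr1:3445143-3445520.

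The genes whose covered percent followed each of the 8 most closely over the 16 libraries were sought among protein-coding genes whose SD was at least 5 percentage points. There were 13874 of these, from which listed genes and genes in the same window were then left out. The libraries fall into roots and shoots, and the values compared share that split and the extent of each library's peaks, so the correlations are descriptions. RHD6 was followed by ZFHD1, a zinc finger homeodomain gene, and AT4G18425 (Pearson r = 0.991 for both). AT4G18425 was also closest to RSL4 (r = 0.993), and it averaged 55.2 ± 3.66 in arr1,10,12 roots, 59.4 ± 3.62 in WT roots and 17.5 ± 1.25 in WT shoots (SD, n = 4, 8 and 4). CPC was followed by the metal transporter gene NRAMP1 (r = 0.982) and GL2 by AT3G62000 and AT3G15300 (r = 0.981 for both). For RSL2 it was RALFL7, of the RALF peptide family (r = 0.953), which averaged 2.23 ± 4.45 in arr1,10,12 roots, 26.0 ± 17.1 in WT roots and 0 in WT shoots. WER had no close follower, its highest r being 0.788, with AT2G42660, and COBL9's was 0.929, with GA20OX5, a gibberellin oxidase gene.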

How the data were processed

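Chromatin accessibility of 16 ATAC-seq libraries was read from the authors' deposited peak lists, which hold only chromosome, start and end, on TAIR10. The submitters' processing notes name HOMER 4.9.2, deepTools 2.5.2, Bowtie 1.2.0 and SAMtools 1.5, whose roles and parameters are not given in the sources used here. The authors' 2 deposited tables of differential regions (diffReps, fold 1.2, by their names) give no direction. The 12 RNA-seq samples were not analysed here. Wide or merged peak calls change the covered percent directly, and a weak site under the caller's threshold counts as 0.

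Starts were taken as 0-based. Genes came from a table of assembly TAIR10.1 without strand; in 62 of 62 bins of 2 Mb its offset to the peaks was within 100 bp. Its coordinates are not printed. Of 56 other list genes, 52 carry the listed symbol in the table, and the remainder are given by the table's symbol or by locus. The lists are 13 patterning genes, 6 hair regulators, 16 hair growth genes, 4 endodermis, 3 root cap, 3 stele and 6 green leaf markers and 5 type-A regulators. The 8 genes and all lists were chosen with earlier results of these data known. Named are the 8 genes, list genes past the adjusted threshold (1 called hair growth gene is not reported here), and up to 2 of the most correlated genes for each of the 8. Named outside this rule, with their values seen, are GL1, SUB, BRN2, BRN1, LRX2, LHCA1, AT5G43175, ARR4, ARR7 and, for BA, ZFP5.

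Covered percent was tested by exact permutation over libraries and joined peak regions by Fisher's exact test, both two-sided and adjusted over all features, with Python 3.11.15, numpy 2.4.6 and scipy 1.17.1. limma 3.58.1 (R 4.3.3) and other alternatives were run as given in the closing section. The scripts were tested on simulated data. Same-numbered BA and control libraries deviated together from their group means over all genes (correlation 0.309 to 0.465 in WT roots, against -0.342 to 0.231 for other numbers). On this the numbers were taken to pair them, though the labels state no pairing. Deviations within a group sum to 0, which lowers the other-number values where the same-number values are positive. With 2 libraries per group both kinds mirror each other (0.404 and -0.404 in WT shoots, 0.506 and -0.506 in arr1,10,12 roots). A planned search for promoter motifs was not run, as no sequence was used here.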

Additional observations from a re-analysis of the deposited data

Results flagged for a closer look

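Among 31 groups of 4 to 8 libraries examined for a library far from the rest, where chance flags about 1 in 20, 1 stood out. The covered percent of WER was 7.74 in WT shoot BA 1, while the other 3 WT shoot libraries were at 0. That library had 34538 peaks, the most of the WT shoots.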

How the results depend on the processing

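RHD6, RSL4, GL2 and CPC kept the higher covered percent in roots under all 23 alternatives each, within 22.3 to 41.0, 29.3 to 57.6, 6.61 to 21.3 and 28.5 to 58.5 percentage points. They lost their calls under 3, each of 4 against 2 values (smallest p 0.0667): replicate block with exact permutation, control libraries alone and BA libraries alone each called 0 of the 8 genes and 0 of all genes. The replicate block with limma called 4 and 8705. Leaving out 1 library gave 4 to 5 called genes and 9485 to 11333 of all genes; the gene body alone gave 4 and 6195. COBL9 reversed to -1.18 with library means subtracted, which takes the same 5.27 percentage points off every gene's root minus shoot difference. WER reversed to -0.830 with BA libraries alone, and the cause of that was not tested. Between genotypes limma called 66 of all genes and the replicate block with limma 3, none of the 8; leaving out 1 library gave 0. For BA the replicate block, leaving out 1 library and all other settings gave 0. In place of 5 called regions there were 3 when a peak had to cover at least 50% of the region and 3 without the narrowest 10% of peaks. Leaving out 1 library gave 0 to 6 called regions. It gave 0 whichever WT shoot library was left out (BA 1, BA 2, control 1 or control 2). The smallest p that Fisher's exact test can give is larger for 8 against 3 libraries than for 8 against 4. The shares of all regions called under these settings are not reported here. The cause of the other changes was not tested. The block changed no other call. Read depth, which would set how firmly an absent peak can be read, is unknown.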

Other observations

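AT5G43175, a locus of the hair regulator list, averaged 9.02 ± 3.39 in BA and 17.2 ± 5.79 in control WT roots (SD, n = 4 each), a difference of -8.23 percentage points (exact permutation p = 0.0571, adjusted p = 0.860). Of the 16 hair growth genes, 15 had a lower mean with BA in WT roots, as had 79.2% of all genes tested, and none was called.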
